A study of Mus musculus with 11 samples.

Results

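The genes described are 10 markers of mesothelium and of the antigen-presenting fibroblasts that share its genes, namely Msln, Upk3b, Upk1b, Wt1, Lrrn4, Muc16, Slpi, Saa3, Gpm6a and Nkain4. They were taken by name from the 54232 gene identifiers of a bulk RNA sequencing count table, and 9 of the 10 were among the 16536 genes that passed an expression filter. The table held 11 orthotopic mouse pancreatic tumours, each grown from 1000 TB32048 carcinoma cells injected into the pancreas. The comparison was between KO hosts, with 6 tumours named KO A to KO F, and WT hosts, with 5 tumours named WT A to WT E.

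All hosts were female C57BL/6 mice, matched for age, and heterozygous for a tamoxifen-inducible Cre recombinase expressed from the Rosa26 locus (CreERT2). KO hosts carried floxed Pkn2 on both alleles (Pkn2 fl/fl) and WT hosts carried Pkn2 without the floxed allele. Both received the same tamoxifen injections, so that the controls carried Cre and tamoxifen too. The Rosa26 locus is active in most cell types of the host, so deletion was not confined to fibroblasts. TB32048 cells, a single line from a female mouse with pancreatic cancer, kept an intact Pkn2 gene, and each library was made from RNA of an extracted tumour.

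Mesothelium is the single layer of flattened cells that covers the pancreas and the other abdominal organs and lines the peritoneal wall. Its cells keep epithelial features, with keratins and an apical coat of mesothelin and mucin, together with mesenchymal features and the transcription factor WT1. In pancreatic cancer, a fibroblast population that carries MHC class II molecules without the usual costimulatory molecules shares many of these markers, including Msln, Upk3b, Slpi and Saa3, and is thought to arise from mesothelium.

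The KO libraries held 22791627 to 28017673 counts and the WT libraries 16294128 to 31121422, and levels are given as CPM, which scales the counts of every tumour to the same total, on library sizes scaled by TMM, a trimmed mean of log ratios between libraries. A count of 3, taken as the smallest visible level, corresponded to 0.0887 to 0.25 CPM depending on the tumour, and covers counting error only. Libraries of WT A, WT B and WT C stood apart from the other 8: ribosomal RNA took 1.31%, 6.39% and 1.40% of their counts against 0.241% to 0.765% elsewhere, and their deviations from the mean of all tumours correlated negatively with gene length across genes (Spearman rho -0.497, -0.446 and -0.172, against 0.0965 to 0.367). Results are therefore also given without these 3 tumours. That setting leaves WT D and WT E as the only WT tumours, so each of them weighs heavily in it. Pkn2 itself averaged 96.6 CPM (SD 9.34, n = 6) in the KO group and 96.7 CPM (SD 34.6, n = 5) in the WT group, which does not check the labels because the carcinoma cells keep the gene.

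No member differed between genotypes at an adjusted p under 0.05 (edgeR quasi-likelihood test, Benjamini-Hochberg adjustment over all genes tested), against 3 of 16536 genes (0.0181%). DESeq2, run as an alternative, called 1 member, Slpi, beside 595 genes higher and 900 lower of 29531 over all genes. At p under 0.05 before adjustment, 1 of the 9 tested members was higher in KO tumours (Slpi) against 8.57% of all genes, and 0 were lower against 15.5%. The 9 log2 fold changes had a median of 0.30, beside -0.03 over all genes tested, with 6 above and 3 below zero. Groups overlapped for every member, whereas 1.59% of all genes had every KO tumour above every WT tumour and 2.01% had every KO tumour below. In pieces of whole tumour, fewer cells of a type and less RNA per cell cannot be told apart, and none of these comparisons separates them. Lrrn4 and Upk1b passed the filter at 0 to 97 and 3 to 61 counts per tumour, so the counts of members describe these libraries and are not evidence about the group.

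**Figure D1:**
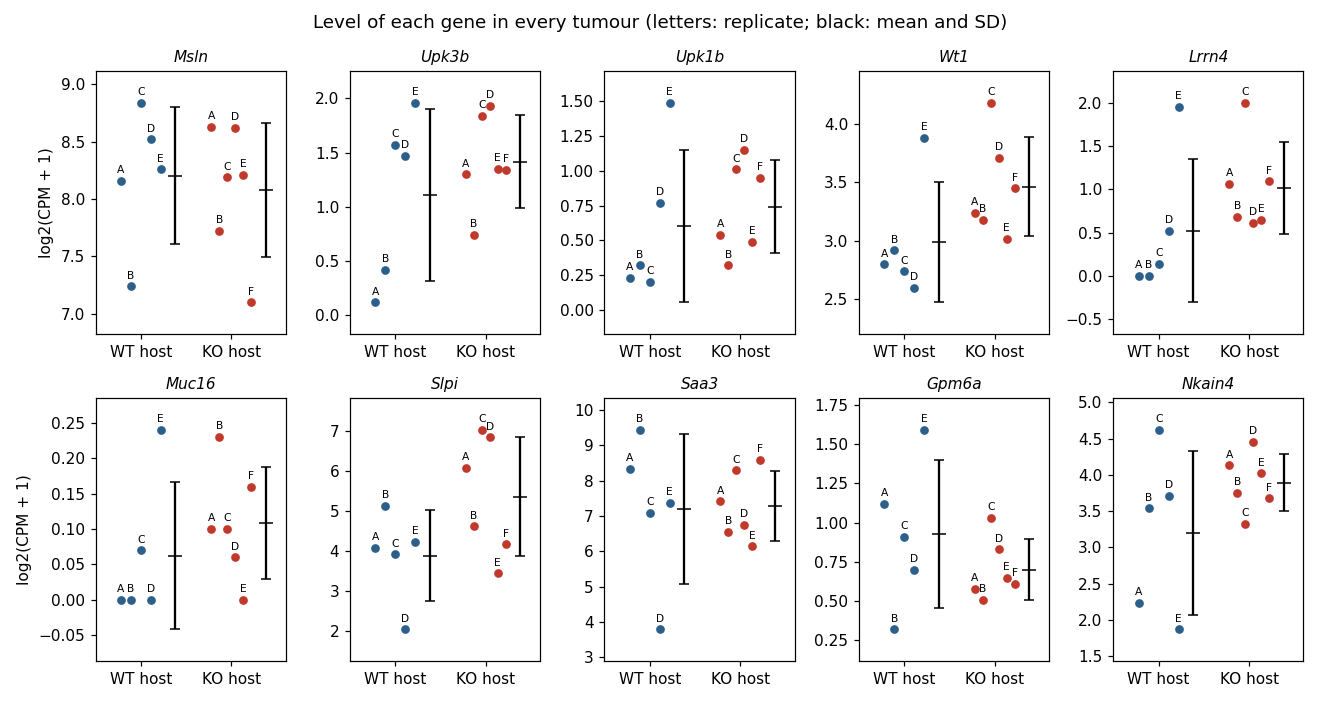
Level of each of the 10 genes in every tumour, as log2(CPM + 1) on the vertical axis, for WT hosts (blue, 5 tumours) and KO hosts (red, 6 tumours); letters give the replicate, and black bars the mean and SD. The groups overlap in every panel, and WT E is the highest WT tumour for Upk3b, Upk1b, Wt1, Lrrn4, Muc16 and Gpm6a.

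The transcription factor of the set was examined first. Wt1 (ENSMUSG00000016458, GRCm38 chromosome 2, 105126529 to 105173616, plus strand) encodes a zinc finger protein that marks mesothelium and its mesenchymal descendants in the embryo and stays on in adult mesothelium. In KO tumours Wt1 ranged from 7.11 CPM (KO E) through a median of 9.21 to 17.1 CPM (KO C). WT tumours had 5.95, 6.59, 5.70, 5.05 and 13.7 CPM in replicates A to E. All 6 KO tumours lay above WT A to D, and WT E lay above every KO tumour except KO C. The mean was 10.5 ± 3.70 CPM in KO (SD, n = 6) and 7.41 ± 3.58 CPM in WT (SD, n = 5), a log2 fold change of 0.50 with a standard error (SE) of 0.32 (edgeR quasi-likelihood test, adjusted p = 0.347).

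The value for Wt1 depended on which WT tumours entered. Without WT E the log2 fold change was 0.85 (edgeR adjusted p = 0.0608), and without WT A, WT B and WT C it was 0.16 (adjusted p = 0.874). With WT E left out, every KO tumour stood above every remaining WT tumour for Wt1 and for Lrrn4, and 4.4% of all genes did so (727 genes). WT E was the only WT tumour inside the KO range for both genes, so leaving it out fixed this separation in advance. In the same 10 tumours 13.0% of all genes tested were higher in KO tumours at p under 0.05 before adjustment (2171 genes), and 3 members were among them, Slpi, Wt1 and Lrrn4. Lrrn4 had 0, 0, 2 and 11 counts in WT A to D and 13 to 86 in KO tumours, so it entered that fit through its KO levels.

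Uroplakins are membrane proteins best known from the urothelial plaques of the bladder, and Upk3b and Upk1b are also markers of mesothelium. Upk3b (ENSMUSG00000042985, chromosome 5, 136038496 to 136046487, plus strand) had 0.667 (KO B), a median of 1.54 and 2.80 CPM (KO D) in KO tumours. In WT tumours it had 0.0868, 0.334, 1.97, 1.76 and 2.90 CPM, from 2, 4, 40, 45 and 98 counts. WT A and WT B were the only tumours below all KO tumours, and the other 3 WT tumours lay within or just above the KO range. The means were 1.77 ± 0.791 CPM (SD, n = 6) and 1.41 ± 1.18 CPM (SD, n = 5), and the log2 fold change 0.30 (SE 0.64; edgeR adjusted p = 0.802). Both low WT tumours belong to those that stood apart. Without WT A, WT B and WT C the log2 fold change was -0.40 (edgeR adjusted p = 0.696). The WT group then held only WT D and WT E, and WT E was the highest of all tumours for Upk3b.

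Upk1b (ENSMUSG00000049436, chromosome 16, 38773184 to 38800328, minus strand), a tetraspanin that pairs with Upk3 proteins in the plaque, was lower still. KO tumours ranged from 0.246 CPM (7 counts, KO B) through a median of 0.691 to 1.22 CPM (30 counts, KO D). WT tumours had 0.174, 0.250, 0.147, 0.705 and 1.80 CPM, the last from 61 counts in WT E. The values of WT A, WT B and WT C rest on 4, 3 and 3 counts, at or just above the smallest visible level. The log2 fold change was 0.14 (SE 0.65, edgeR adjusted p = 0.915), 1.10 without WT E and -0.82 without WT A, WT B and WT C.

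Lrrn4 (ENSMUSG00000043110, chromosome 2, 132868305 to 132880891, minus strand) encodes a membrane protein with leucine-rich repeats that is used as a mesothelial marker. It had 0.528 CPM in KO D, a median of 0.841 CPM and 2.99 CPM in KO C. WT tumours had 0, 0, 0.0983, 0.431 and 2.87 CPM, that is 0, 0, 2, 11 and 97 counts. All KO tumours exceeded WT A to D, and WT E was above every KO tumour except KO C. The log2 fold change was 0.67 (SE 0.97, edgeR adjusted p = 0.694), which became 2.92 without WT E (adjusted p = 0.0549) and -0.52 without WT A, WT B and WT C (adjusted p = 0.765). Leaving out WT E, the only WT tumour inside the KO range, set the groups apart in advance. The fitted values depend on the prior count where a library is at 0, and 2 of the 5 WT libraries were.

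For each of these 4 genes WT E was among the 2 highest tumours, and KO C was the highest for Wt1 and Lrrn4. The promoters of Upk3b and Lrrn4 are shown as examples of mesothelial promoters from this group (their Pearson r with Wt1 over the tumours is given with the relations), and they are the only ones of these 4 genes with an entry in the RefSeq promoter table (GRCm38.p6), which held 6 of the 10 members. Each line gives the 250 bases before the RefSeq start, 5′ to 3′ on the gene's strand, with motif matches in capitals. Upk3b is chr5:136038246-136038495 on the plus strand and Lrrn4 is chr2:132880863-132881112 on the minus strand.
Upk3b: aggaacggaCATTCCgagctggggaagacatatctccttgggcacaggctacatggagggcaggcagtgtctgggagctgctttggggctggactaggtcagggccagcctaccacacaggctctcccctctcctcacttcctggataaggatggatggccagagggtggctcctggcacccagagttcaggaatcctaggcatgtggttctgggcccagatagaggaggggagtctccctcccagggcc
Lrrn4: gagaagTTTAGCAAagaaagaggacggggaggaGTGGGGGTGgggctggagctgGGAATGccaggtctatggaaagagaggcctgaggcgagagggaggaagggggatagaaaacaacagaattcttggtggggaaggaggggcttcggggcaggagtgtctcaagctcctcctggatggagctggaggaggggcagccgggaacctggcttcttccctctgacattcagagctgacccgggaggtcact

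Both windows held the 6-base TEAD motif CATTCC, read on either strand. It lay 241 to 236 bases before the start in Upk3b and, as its reverse complement, 196 to 191 bases before the start in Lrrn4. The same motif occurs in 12.6% of 32851 mouse promoter windows of this length. Lrrn4 also held a match to the C/EBP motif TTGCNNAA (9.56% of windows) at 244 to 237 bases and to a core shared by WT1 and EGR factors, GNGGGGGNG (17.0% of windows), at 217 to 209 bases before the start. A match describes these letters and not a bound site.

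Msln (ENSMUSG00000063011, chromosome 17, 25748613 to 25754378, minus strand) encodes mesothelin, a membrane-anchored glycoprotein of mesothelium that pancreatic carcinoma cells also often make. It was the most abundant of the membrane proteins of the set per length, at 93.6 RPKM (CPM per kilobase of exon) in KO tumours and 102 RPKM in WT tumours on average, against 11.6 and 8.51 RPKM for Nkain4, the next of them, and 0.50 and 0.399 RPKM for Upk3b. In KO tumours Msln ranged from 136 CPM (KO F) through a median of 293 to 396 CPM (KO A). WT tumours had 285, 150, 457, 365 and 305 CPM. KO F and WT B were the lowest tumours, WT C was the highest, and the ranges overlapped almost entirely. The log2 fold change was -0.12 (SE 0.31, edgeR adjusted p = 0.83) and -0.22 without WT A, WT B and WT C.

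Muc16 (ENSMUSG00000109564, chromosome 9, 18495455 to 18674530, minus strand) encodes the large mucin that mesothelin binds. It did not pass the expression filter and was not tested. KO tumours had 0 to 5 counts and WT tumours 0 to 6 counts in the whole library, with 0 counts in KO E, WT A, WT B and WT D. The highest level was 0.177 CPM, in WT E, so Muc16 was at or near the smallest visible level while Msln was at 136 CPM or more in every tumour.

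Gpm6a and Nkain4 are membrane proteins better known from the nervous system that have also been found in mesothelium. Gpm6a (ENSMUSG00000031517, chromosome 8, 54954843 to 55060871, plus strand), a proteolipid-family glycoprotein, had 0.421 (KO B), a median of 0.546 and 1.04 CPM (KO C) in KO tumours and 1.17, 0.250, 0.885, 0.627 and 2.01 CPM in WT A to E. WT E was the highest tumour and WT B the lowest. The log2 fold change was -0.66 (SE 0.45, edgeR adjusted p = 0.38). It was -0.23 without WT E, -0.88 without WT B and -1.05 without WT A, WT B and WT C (adjusted p = 0.312 in the last).

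Nkain4 (ENSMUSG00000027574, chromosome 2, 180934772 to 180954699, minus strand), a protein that interacts with the sodium pump, went the other way in WT E. KO tumours ranged from 9.04 CPM (KO C) through a median of 13.9 to 20.9 CPM (KO D), and WT tumours had 3.73, 10.6, 23.6, 12.1 and 2.66 CPM. WT A and WT E lay below every KO tumour and WT C above every one, so the WT range enclosed the KO range. The log2 fold change was 0.45 (SE 0.47, edgeR adjusted p = 0.573), and ranged with single tumours left out from 0.20 (without WT E) to 0.99 (without WT C). Without WT A, WT B and WT C it was 0.96 (adjusted p = 0.373). Exons of Nkain4 overlap those of Gm14341 on the opposite strand by 55 bases, and counting was strand-specific.

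Of the secreted members, Slpi (ENSMUSG00000017002, chromosome 2, 164354070 to 164389095, minus strand) encodes secretory leukocyte peptidase inhibitor, an inhibitor of neutrophil elastase made by many epithelia as well as by mesothelium. KO tumours had 9.75 (KO E), a median of 44.7 and 129 CPM (KO C). WT tumours had 15.9, 33.9, 14.0, 3.09 and 17.7 CPM. KO A, KO C and KO D (66.0, 129 and 114 CPM) exceeded every WT tumour, whereas KO B, KO E and KO F (23.4, 9.75 and 16.9 CPM) lay within the WT range.

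The mean of Slpi was 59.7 ± 51.7 CPM in KO (SD, n = 6) and 16.9 ± 11.1 CPM in WT (SD, n = 5). Its log2 fold change of 1.83 (SE 0.70) had the smallest p of the members (edgeR adjusted p = 0.147) and did not pass the threshold after adjustment. DESeq2 gave 1.85 with an adjusted p of 0.0414. With single tumours left out, the log2 fold change ranged from 1.43 (without KO C) to 2.24 (without WT B), and the edgeR adjusted p from 0.133 to 0.251. Without WT A, WT B and WT C it was 2.52 (adjusted p = 0.308).

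Saa3 (ENSMUSG00000040026, chromosome 7, 46711998 to 46715700, minus strand) encodes an acute-phase serum amyloid A protein that fibroblasts, adipocytes and macrophages make locally in inflamed tissue. In KO tumours it ranged from 69.7 CPM (KO E) through a median of 139 to 386 CPM (KO F). WT tumours had 322, 691, 135, 12.8 and 164 CPM. The extremes of all 11 tumours, WT B and WT D, were both in the WT group and differed 54-fold. The log2 fold change was -0.48 (SE 0.71, edgeR adjusted p = 0.704), and its sign depended on WT B: without that tumour it was 0.27, and without WT A, WT B and WT C it was 1.11 (adjusted p = 0.568).

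Promoters of Slpi and Saa3 are shown as those of the secreted members, which varied most between tumours. Slpi is chr2:164356508-164356757 and Saa3 is chr7:46715677-46715926, both on the minus strand of GRCm38.p6, and the Slpi window lies inside the longer gene that GENCODE annotates.
Slpi: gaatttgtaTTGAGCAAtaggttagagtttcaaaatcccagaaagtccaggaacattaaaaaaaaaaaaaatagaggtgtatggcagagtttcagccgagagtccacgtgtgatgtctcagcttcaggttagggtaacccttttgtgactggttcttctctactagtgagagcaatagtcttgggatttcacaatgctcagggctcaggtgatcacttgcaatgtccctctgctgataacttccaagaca
Saa3: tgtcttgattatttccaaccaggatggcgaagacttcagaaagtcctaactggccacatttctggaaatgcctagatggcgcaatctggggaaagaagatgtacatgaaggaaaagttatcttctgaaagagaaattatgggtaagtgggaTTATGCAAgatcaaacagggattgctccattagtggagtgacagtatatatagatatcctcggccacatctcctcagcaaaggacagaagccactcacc

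Each of these windows held a single C/EBP match in capitals, at 241 to 234 bases before the start in Slpi and 99 to 92 bases in Saa3. As above, 9.56% of all windows hold this motif. Neither held the letters of the NF-kB core GGANTTTCC (1.07% of windows), the AP-1 motif TGANTCA (6.75%) or the TEAD motif.

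**Figure D2:**
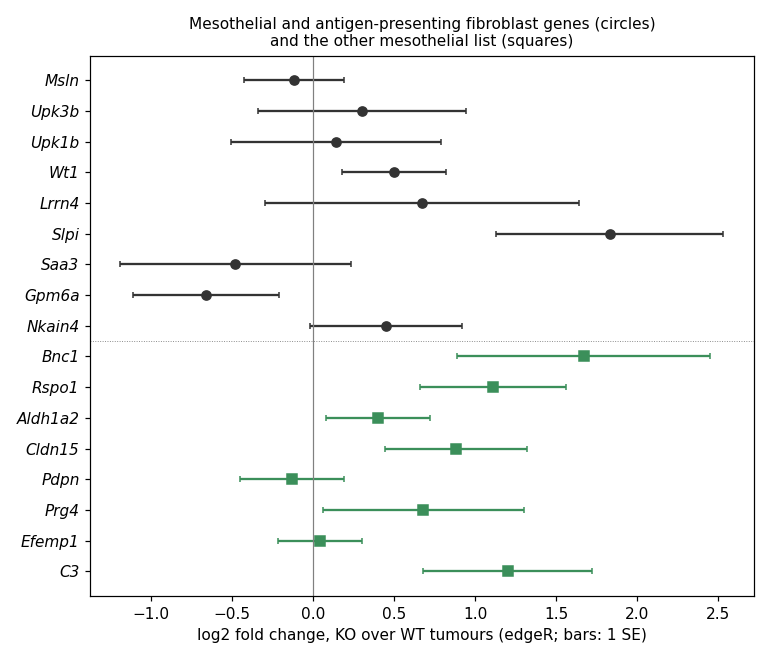
Log2 fold change of KO over WT tumours (horizontal axis, edgeR) for the 9 tested members (black circles) and the 8 tested genes of a further mesothelial list (green squares), with bars of 1 SE. Slpi is the member farthest from zero at 1.83, and Bnc1 the farthest of the other list at 1.67.

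Since the tumours were grown orthotopically, the spread between animals was examined for each member. The SD of log2(CPM + 1) over the 11 tumours lay at the 99.3 percentile of all genes tested for Saa3, 99.2 for Slpi, 93.6 for Nkain4, 87.0 for Lrrn4, 80.9 for Upk3b, 76.6 for Msln, 69.1 for Wt1, 55.1 for Upk1b and 39.3 for Gpm6a. The ranks of Lrrn4, Upk3b, Upk1b and Gpm6a are partly set by the pseudocount of 1, which compresses genes near 1 CPM. Highest and lowest tumours differed 54-fold for Saa3, 41.6-fold for Slpi, 33.4-fold for Upk3b, 12.2-fold for Upk1b, 8.89-fold for Nkain4 and 8.03-fold for Gpm6a. They differed 3.36-fold for Msln and 3.39-fold for Wt1, and Lrrn4 had no ratio because its lowest level was 0. The lowest Upk3b and Upk1b tumours had 2 and 3 counts. WT tumours were more spread than KO tumours for 8 of the 9 tested members by this SD, the exception being Slpi (SD 1.5 in KO and 1.13 in WT). The same held for 84.6% of all genes tested, and the WT group includes the 3 libraries that stood apart.

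High levels were concentrated in a few tumours. WT E had the highest level of 4 members and was among the top 3 tumours for 6, KO C had the highest level of 3 and was among the top 3 for 6, and KO D was among the top 3 for 6. KO E and WT D were among the top 3 for none. WT A and WT B each had 0 counts of 2 members. The 2 tumours richest in these markers thus came from different genotypes.

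**Figure D3:**
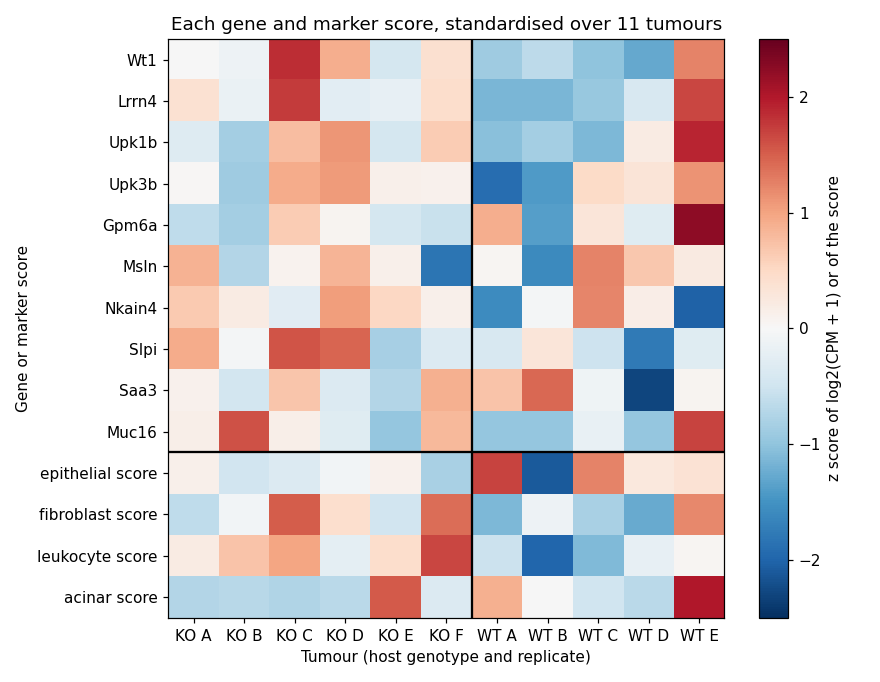
Each member and 4 marker scores (rows) in each tumour (columns), as z scores over the 11 tumours (colour scale, red above and blue below the mean); a marker score is the mean z score of a list of cell type genes. WT E and KO C are red for Wt1, Lrrn4, Upk1b, Upk3b, Gpm6a and the fibroblast score, and WT D is blue for Slpi and Saa3.

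To ask which members varied together, 72 relations were computed over the 11 tumours: 36 pairs of members, and the 9 tested members against epithelial, fibroblast, leukocyte and acinar scores. Permutation tests with 100000 resamples were adjusted over all 72. Wt1 followed the fibroblast score most closely, with Pearson r = 0.90 (permutation p = 0.00036, adjusted p = 0.0259) and Spearman rho = 0.90 (adjusted p = 0.0266). The coefficient was 0.80 without the 2 tumours farthest from the median of Wt1 (KO C and WT E), 0.87 after centring on the genotype mean (adjusted p = 0.0641) and 0.89 in the 8 tumours without WT A, WT B and WT C (adjusted p = 0.0696).

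Wt1 and Lrrn4 were the only pair of members past the threshold, with r = 0.85 (permutation p = 0.00108, adjusted p = 0.0389), whereas the rank correlation did not pass (rho = 0.82, adjusted p = 0.0811). Without KO C and WT E it was 0.61, so much of this relation rests on those 2 tumours. Within genotype it was 0.83 (adjusted p = 0.0895), and without WT A, WT B and WT C it was 0.80 (adjusted p = 0.15). The other pairs among Wt1, Lrrn4, Upk1b and Upk3b had r between 0.59 and 0.78 and did not pass (permutation tests, adjusted p between 0.089 and 0.266).

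Msln had r = -0.06 with Wt1, 0.03 with Lrrn4, 0.06 with Upk1b and 0.47 with Upk3b (permutation, adjusted p = 0.413 for Upk3b). Its strongest relation over all 11 tumours was with the epithelial score (r = 0.71, permutation p = 0.0137, adjusted p = 0.132, rho = 0.63). That coefficient was 0.34 without KO F and WT B, 0.71 within genotype and 0.82 without WT A, WT B and WT C. With the leukocyte score Msln had r = -0.18 over all tumours and -0.15 within genotype. This became -0.67 without KO F and WT B and -0.89 without WT A, WT B and WT C (permutation, adjusted p = 0.0696 in the last). In these 2 settings it was farther from zero than the epithelial coefficient. Slpi and Saa3 had r = 0.53 with each other (permutation, adjusted p = 0.349). Nkain4 had r = -0.65 with Gpm6a (permutation, adjusted p = 0.178), which was 0.26 without WT A and WT E, -0.60 within genotype and -0.85 without WT A, WT B and WT C, so its sign depended on which tumours entered.

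**Figure D4:**
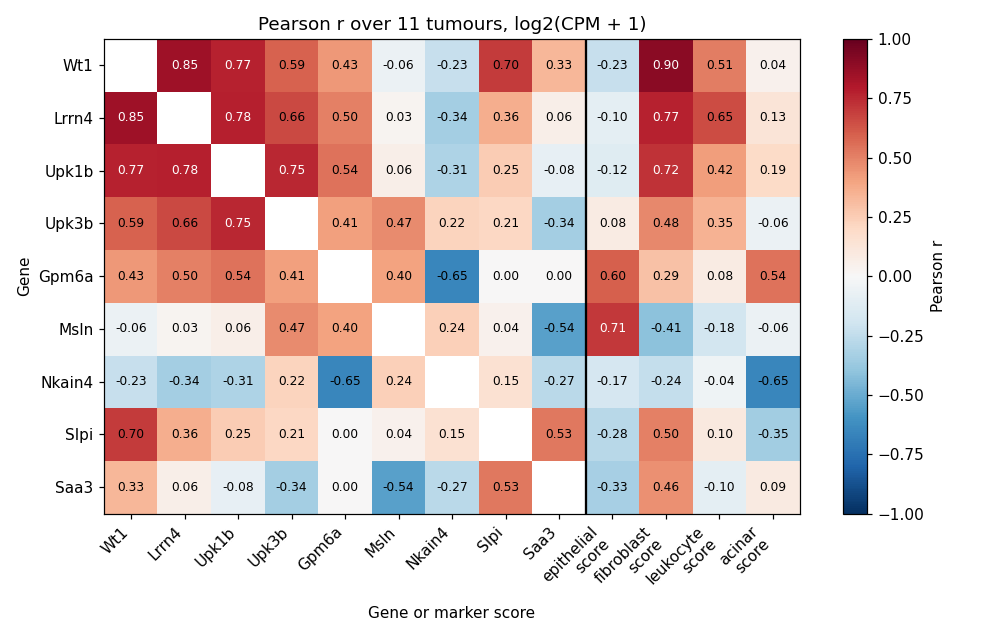
Pearson r over the 11 tumours between the 9 tested members (rows) and between them and 4 marker scores (columns right of the line), on log2(CPM + 1), from -1 (blue) to 1 (red). Wt1, Lrrn4, Upk1b and Upk3b form a block of r from 0.59 to 0.85, and Msln is near zero with the first 3 of them.

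Single genes of each list were also set beside the members, as a description over the same 11 tumours. The median r of Wt1 with the 9 fibroblast genes was 0.83, of Upk1b 0.74 and of Lrrn4 0.73, against medians of 0.01 to 0.03 with all genes tested. With the 7 MHC class II genes the median r was -0.57 for Upk1b, -0.42 for Upk3b, -0.39 for Gpm6a, -0.31 for Msln, -0.26 for Wt1, -0.23 for Lrrn4, -0.17 for Slpi, 0.17 for Saa3 and 0.23 for Nkain4. Msln had a median r of 0.73 with the 10 epithelial genes. Slpi had a median r of 0.75 with the 4 tested adipocyte genes (highest 0.79, Adipoq). With the 6 tested acute-phase genes the median r was 0.59 for Slpi (highest 0.84, Lcn2) and 0.56 for Saa3 (highest 0.86, Il6).

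**Figure D5:**
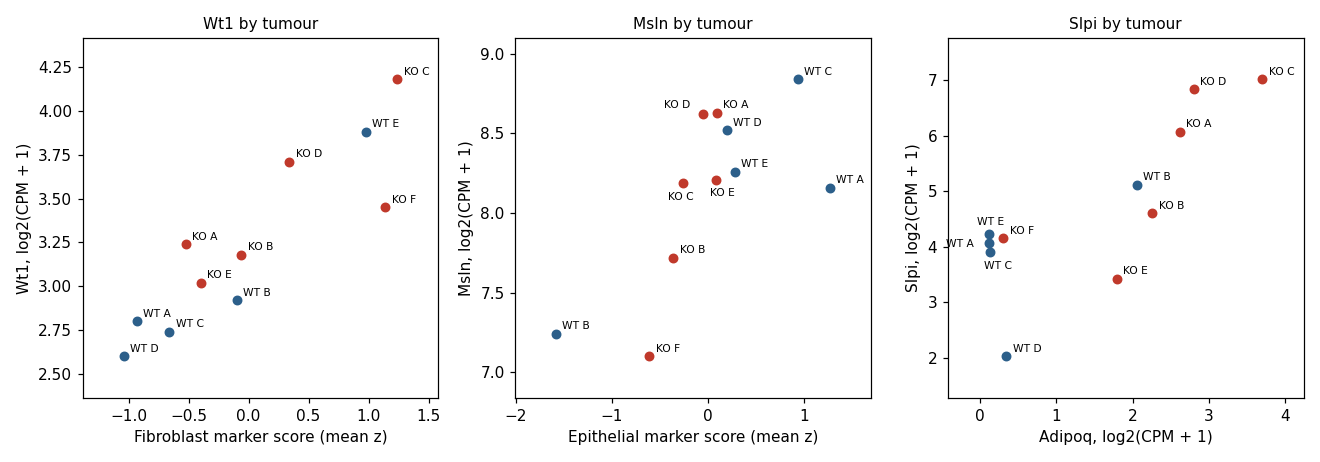
Each point is 1 tumour (KO red, WT blue), with Wt1 against the fibroblast score, Msln against the epithelial score, and Slpi against Adipoq, all genes as log2(CPM + 1) and scores as mean z. Wt1 rises with the fibroblast score from WT D to KO C, WT B and KO F lie low for Msln, and the 3 highest Slpi tumours (KO A, KO C and KO D) also have the 3 highest Adipoq levels.

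The genes with the pattern most like each member, by Pearson r of log2(CPM + 1) among all genes tested, are given with no test. Wt1 was nearest to Npr1 (0.962), Gfpt2 (0.944) and Col3a1 (0.942), a natriuretic peptide receptor, an enzyme of hexosamine synthesis and a fibrillar collagen. Lrrn4 was nearest to Itga11 (0.949), Plod2 (0.941) and Eda (0.939), of which Itga11 is a collagen receptor of fibroblasts and Plod2 a collagen lysyl hydroxylase. Upk1b was nearest to Arhgap24 (0.979), Stab1 (0.946) and Arhgap29 (0.931), and Upk3b to Gm15265 (0.938), Cers2 (0.925) and Hoxa2 (0.920).

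Neighbours of the other members were of other kinds. Msln was nearest to Dgat2 (0.925), Gcnt3 (0.920) and Sult1c2 (0.917), enzymes of triglyceride synthesis, mucin glycosylation and sulfation. Slpi was nearest to Ltb4r1 (0.928), a leukotriene B4 receptor, Lrg1 (0.907), an acute-phase glycoprotein, and Stmn2 (0.903). Saa3 was nearest to Mgst1 (0.944), 1810006J02Rik (0.922) and Ifitm1 (0.922), Gpm6a to Slc7a9 (0.910), Telo2 (0.894) and Vstm2b (0.889), and Nkain4 to Fgfrl1 (0.927), Cpn1 (0.922) and Hhex (0.905).

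A further list of 10 mesothelial genes was read in the same fit. In that fit 8.57% of all genes tested were higher in KO tumours and 15.5% lower at p under 0.05 before adjustment. The counts of every list over all 11 tumours stand beside these shares. Of its 8 tested genes, 2 were higher in KO tumours at p under 0.05 before adjustment and 0 were lower, with a median log2 fold change of 0.78, and none passed adjustment. These were Rspo1, a WNT-enhancing secreted protein (log2 fold change 1.11, SE 0.45, edgeR adjusted p = 0.165), and C3, the central complement component (1.20, SE 0.52, adjusted p = 0.181). Efemp1, an extracellular matrix glycoprotein, was at 104 ± 8.96 CPM in KO (SD, n = 6) and 101 ± 41.3 CPM in WT (SD, n = 5), a log2 fold change of 0.04. The count of 2 was 0 without WT A, without WT C, or without WT A, WT B and WT C, and 4 without WT E, with DESeq2 or without a filter. C3 had an adjusted p of 0.0406 in the edgeR fit without WT E.

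Bnc1, named here after its values were seen, encodes basonuclin, a zinc finger protein of mesothelium and squamous epithelium, and had the largest fold change of that list. It had 0, 0, 0.590, 0.157 and 1.24 CPM in WT A to E and 0.934 to 2.37 CPM in KO tumours, so that WT E again was the only WT tumour inside the KO range (log2 fold change 1.67, SE 0.78, edgeR adjusted p = 0.21). Calb2, which encodes the mesothelial marker calretinin, had 0 to 14 counts and was not tested, and Krt5 had 0 counts in every tumour.

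The label of antigen-presenting fibroblasts was set against MHC class II genes, which dendritic cells, macrophages and B cells also express. Their summed level was 4250 to 13200 CPM in KO tumours and 2990 to 9720 CPM in WT tumours, and 1 of 7 was higher in KO before adjustment, Ciita, the class II transactivator (log2 fold change 1.14, SE 0.41, edgeR adjusted p = 0.129). The count was 3 without WT A, WT B and WT C, 2 without WT A, and 0 under the replicate block or the ribosomal RNA covariate. Cd74, the invariant chain, gave 0.37 (SE 0.33, adjusted p = 0.499). In WT E, the WT tumour highest for 6 members, the class II sum was the lowest of all 11 tumours at 2990 CPM. In KO C and KO D, the other tumours rich in the members, the sums were 7210 and 4250 CPM, that of KO D being the lowest of the KO tumours. Bulk levels cannot say whether any cell carried both kinds of transcript. Upk3b, Upk1b, Lrrn4, Muc16 and Gpm6a had mean levels under 2 CPM in both groups, and the members above that level were Msln, Saa3, Slpi, Nkain4 and Wt1. Of these, Msln, Slpi and Saa3 are also made by other cell types.

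Markers of other cell types moved beside the members, and their part in the members' levels was not tested. Over all genes tested, 8.57% were higher and 15.5% lower in KO tumours before adjustment. Of 9 leukocyte genes, 5 were higher and 0 lower in KO tumours before adjustment (summed level 610 to 1120 CPM in KO and 268 to 633 CPM in WT), the smallest p being that of Cd79a, a B cell receptor subunit (log2 fold change 2.62, SE 0.48, edgeR adjusted p = 0.0663). The leukocyte count was 2 without WT A, WT B and WT C and 3 with the ribosomal RNA covariate. Of 10 epithelial genes, 0 were higher and 3 lower (2780 to 5680 CPM and 3120 to 9650 CPM), among them Krt19 (log2 fold change -0.92, SE 0.33, edgeR adjusted p = 0.128). The number lower was 1 without WT A, WT B and WT C and 7 with the ribosomal RNA covariate. None of the 9 fibroblast genes passed in either direction, with a median log2 fold change of 0.39 (3110 to 6460 CPM and 1900 to 6650 CPM). WT E had the highest fibroblast sum, and without WT E 6 of the 9 were higher in KO tumours before adjustment, in the same fit in which Wt1 and Lrrn4 were. The 7 acinar genes, of which 2 were tested, summed to 1910 CPM in WT E and 678 CPM in KO E against 185 CPM or less elsewhere.

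Beside Slpi, 2 of 4 tested adipocyte genes were higher in KO tumours before adjustment, with a median log2 fold change of 2.5. They were Plin1, which coats lipid droplets (3.66, SE 1.04, edgeR adjusted p = 0.0946), and the adipokine gene Adipoq (2.89, SE 1.07, adjusted p = 0.135). Adipoq was at 5.15, 12 and 5.98 CPM in KO A, KO C and KO D, the tumours highest for Slpi. It was at 3.79 and 2.48 CPM in KO B and KO E, where Slpi was at 23.4 and 9.75 CPM, inside the WT range of Slpi. In KO F Adipoq was at 0.242 CPM, and in WT A to E at 0.0868, 3.17, 0.0983, 0.274 and 0.0887 CPM. Fabp4, the most abundant gene of the list, was the 1 tested adipocyte gene with a negative log2 fold change (-0.45, SE 0.43, edgeR adjusted p = 0.54). The summed adipocyte level was 47.3 to 174 CPM in KO and 26.9 to 222 CPM in WT, with WT B the highest. In WT B, Fabp4 was at 180 CPM. No adipocyte gene of the list was at 0 in every tumour. Without WT A, WT B and WT C, 4 adipocyte genes were higher before adjustment.

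Beside Saa3 and Slpi, 2 of 6 tested acute-phase genes were higher in KO tumours and 0 lower before adjustment. Their median log2 fold change was 0.08, with 3 above and 3 below zero. Lcn2, an iron-siderophore carrier of neutrophils and inflamed epithelium, was at 180 ± 76.3 CPM in KO (SD, n = 6) and 63.8 ± 27.7 CPM in WT (SD, n = 5), a difference of 1.5 on the log2 scale (SE 0.36, edgeR adjusted p = 0.0847). Hp, haptoglobin, had a log2 fold change of 0.73 (SE 0.22, adjusted p = 0.0991). The cytokine genes Il1a, Il1b and Il6 were those below zero, at -0.69, -0.77 and -0.57 (edgeR adjusted p = 0.287, 0.392 and 0.516). Saa1 and Saa2, the relatives of Saa3 made mainly by liver, had at most 12 and 4 counts and were not tested.

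Relatives of the members in the same gene families were mostly at low levels. Of 13, 6 were tested, 2 were higher in KO tumours and 0 lower before adjustment, and the median log2 fold change was 0.14. Gpm6b, the paralogue of Gpm6a, was at 98.9 ± 12.8 CPM in KO (SD, n = 6) and 68.8 ± 22.6 CPM in WT (SD, n = 5), and its log2 fold change was 0.52 (SE 0.20; edgeR adjusted p = 0.15), opposite in sign to that of Gpm6a. Lrrn2 had a log2 fold change of 0.68 (SE 0.31, adjusted p = 0.199). Upk2 and Upk3a, uroplakins of the bladder, had at most 1 and 2 counts in any tumour.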

How the data were processed

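RNA of 11 orthotopic tumours (6 KO, 5 WT), 1 library each, was sequenced by the authors from directional libraries. Per the study's methods and the submitters' processing notes, reads were trimmed with Trimmomatic, aligned to mm10 (GRCm38) with HISAT2 2.1.0, and uniquely aligned reads over exons were counted per gene with HTSeq 0.11.2 using strand. The authors deposited raw counts per gene, in whole numbers, which were the basis of every test. They also deposited normalised values, a signal equal to the raw count divided by a single factor per tumour (DESeq2 size factors), used here only as an alternative scale.

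Of 54232 identifiers, 54079 matched a symbol in GENCODE M21 (GRCm38, the authors' build). KO was compared with WT by edgeR 4.0.16 (glmQLFTest, filterByExpr, TMM, no covariate, Benjamini-Hochberg over 16536 genes) in R 4.3.3. SE is the absolute log2 fold change over the square root of F. Levels are CPM on TMM-scaled library sizes, and log2 levels use a pseudocount of 1 CPM. RPKM divides CPM by the union exon length in kilobases. Relations used Python 3.11.15 with scipy 1.17.1. Motifs were searched in RefSeq promoters of GRCm38.p6. The scripts were tested on simulated data.

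The members and lists were chosen with earlier results of these data known. Genes named were the members, Pkn2 and the 3 genes nearest each member. From each other list the 2 genes with the smallest p and the 2 with the highest mean were picked, but only some of these are named. The fibroblast and acinar lists are given as counts and sums only. The named genes of a list therefore do not stand for the whole list. A few others are named because a result turned on them, to account for genes not tested, or to give the other direction within a list. Alternatives were DESeq2 1.42.0, its size factors in edgeR, 2 other filters, the replicate letter as a block, ribosomal RNA share as a covariate, and leaving out tumours. A gene length offset, and the overlap and relations without WT A, WT B and WT C, were added after seeing the data. The labels give no batch.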

Additional observations from a re-analysis of the deposited data

Results flagged for a closer look

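In each group, the highest and lowest tumour for every member was compared with its nearest neighbour, and 3 values stood far from the rest of their group by Dixon's criterion among the 20 groups examined. Chance flags about 1 in 20 groups. Wt1 in WT E was at 3.88 on the log2(CPM + 1) scale (13.7 CPM), with the other WT tumours between 2.60 and 2.92. The gap was 0.745 of the range, above the critical value of 0.71. Lrrn4 in the same tumour was at 1.95 (2.87 CPM), with the others between 0 and 0.52 (gap 0.735 of the range). Lrrn4 in KO C was at 2.00 (2.99 CPM), with the other KO tumours between 0.61 and 1.09 (gap 0.655 of the range, critical value 0.625). The 3 values come from WT E and KO C, which were also high for other members. The genes are related across tumours, so these values are not separate events.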

How the results depend on the processing

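With 5 and 6 tumours per group, 1 library decided several values. Leaving out single tumours, the number of members higher in KO tumours at p under 0.05 before adjustment went from 0 (without KO C) to 3 (without WT E), from 1 with all tumours. Members lower went from 0 to 1 (without WT B), members without overlap from 0 to 2 (without WT E), genes of other lists higher at an adjusted p from 0 to 6 (without WT E) and at an unadjusted p from 12 to 23 (14 with all tumours), those lower from 1 to 6 (3 with all tumours), and relations past the threshold from 0 to 3 (2 with all tumours). Over all genes, calls at an unadjusted p in either direction moved as well, from 3972 of 16536 with all tumours. They numbered 5367 of 16731 without WT E, 2732 of 16752 without WT B and 3424 of 16345 without KO C. With the ribosomal RNA covariate they numbered 1947 of 16536. Genes with every KO tumour above every WT tumour went from 1.59% to 4.4% without WT E. DESeq2 called 1 member (Slpi) and 6 genes of other lists higher at an adjusted p, and the fit without a filter called 1 of other lists. Without WT A, WT B and WT C together, 0 members were higher, 1 gene of other lists was lower and 0 relations passed. With the ribosomal RNA covariate 1 member (Gpm6a) and 7 genes of other lists were lower at an unadjusted p, and with the gene length offset 0 of other lists. Relations past the threshold numbered 1 with a pseudocount of 0.1 CPM, 1 on the deposited scale and 0 after centring on genotype.

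Log2 fold changes that turned in sign did so at low precision. Msln was 0.074 under the replicate block and ranged from -0.30 to 0.054 with single tumours left out. Upk3b was -0.047 with the ribosomal RNA covariate and -0.40 without WT A, WT B and WT C (single tumours -0.004 to 0.74). Upk1b was -0.13 and -0.82 in the same settings (-0.10 to 1.10), and Saa3 was 0.49 and 1.11 (-0.81 to 0.27). Lrrn4 was -0.52 without WT A, WT B and WT C (0.12 to 2.92). In that setting only WT D and WT E remained in the WT group. WT E was the highest WT tumour for Upk3b, Upk1b and Lrrn4. The cause was not tested.

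Same-lettered KO and WT tumours come from different animals. Their deviations correlated at -0.129 to 0.109, inside the range of -0.347 to 0.165 for tumours with different letters. These values cannot show whether a letter also stands for shared handling. The replicate block left 0 members at an unadjusted p under 0.05 (Slpi 1.76, edgeR adjusted p = 0.363), and called 8 genes higher and 1 lower over all genes, from 3 and 0. All-gene calls were 595 higher and 900 lower with DESeq2 and 608 and 1248 without WT E. Counts of single lists moved too: family relatives higher went from 0 to 3 with single tumours left out (2 with all). Depth limits Muc16, Upk1b, Gpm6a, Upk3b and Lrrn4, which had under 10 counts in at least 1 tumour.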
